A study of Mus musculus with 30 samples.

Results

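The neurotrophin group examined here comprised 7 genes, *Bdnf*, *Ntf3*, *Ntrk2*, *Ntrk3*, *Ngfr*, *Sort1* and *Vgf*, found by their mouse symbols among the 19737 genes of the whole-brain RNA-Seq table. Values came from 30 libraries of male C57BL/6N mice in 6 groups of 5. WT and *Arid1b*+/- (HT) pups were taken at P10 without drug (P10-WT and P10-HT). At P120, WT and HT adults had been reared by dams that drank 0.2% saccharin water alone (WT-Veh and HT-Veh) or with 0.1 mg/ml fluoxetine (WT-Flx and HT-Flx), so that the pups were exposed through the milk from P3 to P21 and drank plain water afterwards. HT mice carry one *Arid1b* allele targeted at exon 5 by CRISPR/Cas9 and came from a repository as a single line. HT mice were bred from HT sires and WT dams. The value of a gene in a library is its normalized count, the reads assigned to the gene divided by the normalization factors of the deposited table.

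Neurotrophins are secreted growth factors that are made as pro-proteins, cleaved by convertases and released from neurons, partly in response to activity. The mature forms bind Trk receptor tyrosine kinases, which promote survival, dendritic growth and synaptic strengthening, whereas the pro-forms bind p75NTR together with sortilin and can promote pruning and cell death. In the brain, BDNF acting on TrkB is the pair most studied for activity-dependent plasticity and for the response to antidepressants, and NT-3 acting on TrkC is most prominent in development.

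The ligands were *Bdnf* (ENSMUSG00000048482, chr2:109674700-109727007 of GRCm38, plus strand), which encodes brain-derived neurotrophic factor, and *Ntf3* (ENSMUSG00000049107, chr6:126101412-126166910, minus strand), which encodes NT-3. *Vgf* (ENSMUSG00000037428, chr5:137026392-137033351, plus strand) encodes a secreted peptide precursor whose transcription is induced by BDNF. The kinase receptors were a pair. *Ntrk2* (ENSMUSG00000055254, chr13:58806569-59133970, plus strand) encodes TrkB, in a full-length form and truncated forms that lack the kinase, and *Ntrk3* (ENSMUSG00000059146, chr7:78175959-78738012, minus strand) encodes TrkC. *Ngfr* (ENSMUSG00000000120, chr11:95568818-95587735, minus strand) encodes p75NTR, the low-affinity receptor shared by all neurotrophins. *Sort1* (ENSMUSG00000068747, chr3:108284082-108361511, plus strand) encodes sortilin, which sorts pro-BDNF into secretory vesicles and binds pro-neurotrophins together with p75NTR. Exons of *Bdnf* overlap those of the antisense gene *Gm45346*, and exons of *Sort1* overlap those of the antisense gene *Gm12523*. The library kit did not mark strand, so reads of these partners cannot be told apart.

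*Bdnf* is transcribed from several promoters that respond to different stimuli, and its 11 annotated transcripts were summed to 1 value here. RefSeq (GRCm38.p6) gave 300-base promoter windows, 250 bases before and 50 after a start, for 4 of the 7 members: 7 windows for *Bdnf*, 2 for *Ntf3*, 1 for *Ngfr* and 1 for *Ntrk2*. The windows were searched on both strands for the cAMP response element TGACGTCA, its core TGACG (which overlaps the full element), the Egr site GCGGGGGCG and the E-box CATATG. Of all 32851 promoters of this length, 1.79% held the full element, 20.81% the core, 2.91% the Egr site and 3.91% the E-box. Among the 11 windows, CATATG was found in *Bdnf* windows 3 and 4 and the core, as its reverse complement CGTCA, in *Bdnf* window 3. The full element and the Egr site were found in none. *Bdnf* windows 3 and 4 are shown because they alone held a motif match. The transcripts of the 7 *Bdnf* windows cannot be separated in the values below. The first *Ntf3* window and the *Ngfr* window are shown because these genes fell between P10 and P120. Sequences run 5′ to 3′ on the gene's strand, and capitals mark motif matches.

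*Bdnf* window 3, chr2:109692186-109692485, plus strand: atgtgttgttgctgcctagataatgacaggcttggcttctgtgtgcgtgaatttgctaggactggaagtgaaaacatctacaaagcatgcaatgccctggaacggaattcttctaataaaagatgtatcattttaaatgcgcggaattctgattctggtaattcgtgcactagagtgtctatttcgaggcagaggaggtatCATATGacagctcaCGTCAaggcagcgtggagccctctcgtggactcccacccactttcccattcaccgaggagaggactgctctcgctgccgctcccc

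*Bdnf* window 4, chr2:109692777-109693076, plus strand: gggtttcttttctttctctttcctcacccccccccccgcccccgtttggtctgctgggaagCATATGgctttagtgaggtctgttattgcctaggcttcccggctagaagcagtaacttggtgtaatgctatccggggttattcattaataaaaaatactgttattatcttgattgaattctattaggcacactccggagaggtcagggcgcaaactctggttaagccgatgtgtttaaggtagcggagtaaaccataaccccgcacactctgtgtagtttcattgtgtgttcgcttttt

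*Ntf3* window 1, chr6:126166695-126166994, minus strand: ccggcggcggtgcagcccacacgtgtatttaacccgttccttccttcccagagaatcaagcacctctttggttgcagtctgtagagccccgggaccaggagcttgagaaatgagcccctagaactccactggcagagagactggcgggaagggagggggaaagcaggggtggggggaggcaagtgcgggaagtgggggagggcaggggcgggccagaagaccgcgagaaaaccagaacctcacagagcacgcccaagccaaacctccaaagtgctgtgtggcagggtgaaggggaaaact

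*Ngfr* window 1, chr11:95587649-95587948, minus strand: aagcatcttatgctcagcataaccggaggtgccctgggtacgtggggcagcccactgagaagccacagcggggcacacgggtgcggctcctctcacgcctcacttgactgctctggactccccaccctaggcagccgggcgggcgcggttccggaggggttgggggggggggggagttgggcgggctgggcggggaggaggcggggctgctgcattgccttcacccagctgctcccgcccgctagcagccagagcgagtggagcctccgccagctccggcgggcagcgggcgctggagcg

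The 4 windows shown differed in composition, from a GC content of 46.3% in *Bdnf* window 4 and 48.7% in *Bdnf* window 3 to 61.0% in *Ntf3* window 1 and 71.7% in the *Ngfr* window, against a median of 52.7% over all promoters.

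*Arid1b*, the targeted gene, was lower in the 5 P10-HT libraries (2162 to 2334) than in the 5 P10-WT libraries (3164 to 3309). At P120, *Arid1b* was at 3361 in the library labelled HT-Veh replicate 2, inside the range of WT libraries, and at 2320 in the one labelled WT-Veh replicate 2, inside that of HT libraries. Both go against their labels, and results that rest on the vehicle groups are given with and without them. The deposited values of a library summed to 31578614 to 35542279 in P10-HT, P10-WT, WT-Veh and WT-Flx and to 33200684 to 41801037 in HT-Veh and HT-Flx. Libraries also differed in composition. The GC contrast of a library, the mean log2 deviation of the 1320 most GC-rich minus that of the 1320 least GC-rich of 13193 genes, ranged from 0.778 to 1.66 in HT-Flx, -0.545 to 1.09 in HT-Veh, -0.252 to 0.728 in WT-Veh and -0.565 to -0.345 in WT-Flx. It ranged from -0.886 to -0.493 in P10-HT and -0.54 to -0.477 in P10-WT. The HT-Flx libraries therefore stood apart from the WT-Flx libraries over many genes, and the P120 comparisons are also given from a fit corrected for GC content and transcript length, which subtracts from each library its mean deviation within 100 classes of genes. The transcripts of *Bdnf* (GC content 40.9%) lay at percentile 7.3 of these genes, and those of *Ngfr* (58.6%) and *Vgf* (64.1%) at percentiles 90.4 and 99.3.

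The members spanned a wide range of levels (the plot of levels per kb). Per kb of the longest protein-coding transcript, P10-WT libraries held 2358 ± 151 normalized counts of *Vgf* (SD, n = 5), 1895 ± 53.3 of *Ntrk2*, 1463 ± 61.7 of *Sort1* and 318 ± 8.27 of *Ntrk3*. *Ngfr* (116 ± 22.8), *Bdnf* (106 ± 6.56) and *Ntf3* (104 ± 13.2) were lowest on this scale, and neighbours among these 3 overlapped. The secreted peptide precursor and the receptors *Ntrk2* and *Sort1* were thus an order of magnitude above both neurotrophin ligands. In WT-Veh the order was *Vgf* (3033 ± 385 per kb), *Sort1* (2508 ± 163), *Ntrk2* (2371 ± 118), *Ntrk3* (308 ± 21.8), *Bdnf* (116 ± 14.6), *Ngfr* (61.2 ± 7.79) and *Ntf3* (32.0 ± 11.7). The ranges of *Vgf* and *Sort1* overlapped there, as did those of *Sort1* and *Ntrk2*. In the plot of levels per kb, the place of the Trk receptors depended on the length used. The longest *Ntrk3* transcript is 19.7 kb and the median of its protein-coding transcripts 2.73 kb (8.74 and 3.05 kb for *Ntrk2*). With median lengths, *Ntrk2* led in each of the 6 groups, though its range overlapped that of *Vgf* in HT-Veh and HT-Flx (6800.1 ± 338 per kb in WT-Veh), and *Ntrk3* (2223 ± 158) overlapped *Sort1* (2515 ± 163) there. *Bdnf*, *Ngfr* and *Ntf3* held the lowest 3 places under both lengths in every group.

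**Figure D1:**
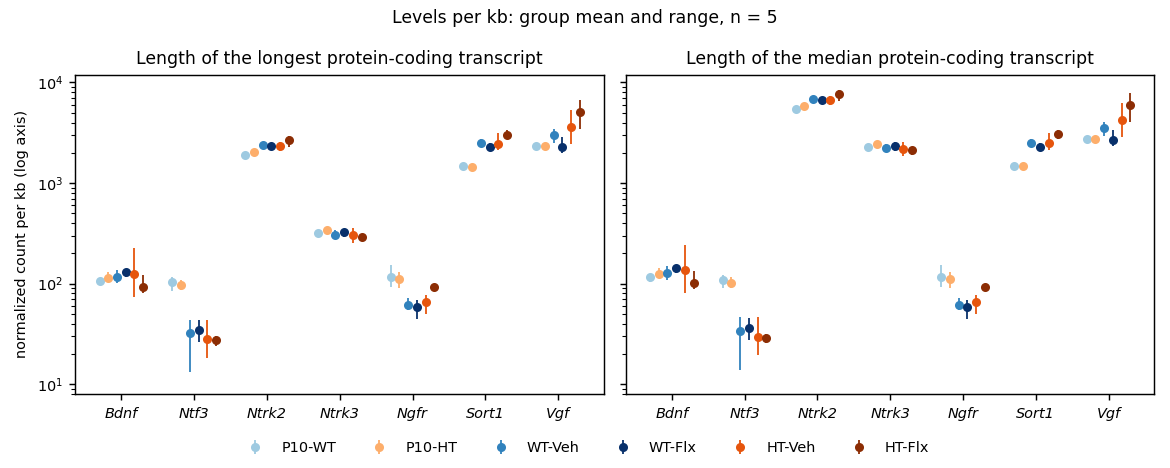
Normalized count per kb (log axis) of the 7 genes in the 6 groups, with points for the mean and lines for the range of 5 libraries, by the length of the longest (left) or median (right) protein-coding transcript. *Bdnf*, *Ngfr* and *Ntf3* sit below the other genes in both panels, and *Ntrk3* moves from 308 to 2223 per kb in WT-Veh between them.

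Between P10 and P120 the 7 genes separated into those that fell, those that rose and those without a detected change (the plot of normalized counts by group). *Ntf3* and *Ngfr* fell in both genotypes. *Sort1* and *Vgf* rose in both, and *Ntrk2* rose in WT. *Bdnf* and *Ntrk3* passed the test in neither genotype. With limma and Benjamini-Hochberg adjustment over all genes, 5 of the 7 passed an adjusted p of 0.05 in WT, where 58.3% of all 17927 genes tested did, and 4 of 7 in HT, where 51.1% of 17989 did. Adults had been reared by dams given saccharin and pups had not, so age, vehicle and any difference in library preparation cannot be told apart. In whole-brain RNA, fewer cells of a type and less RNA per cell cannot be told apart either.

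**Figure D2:**
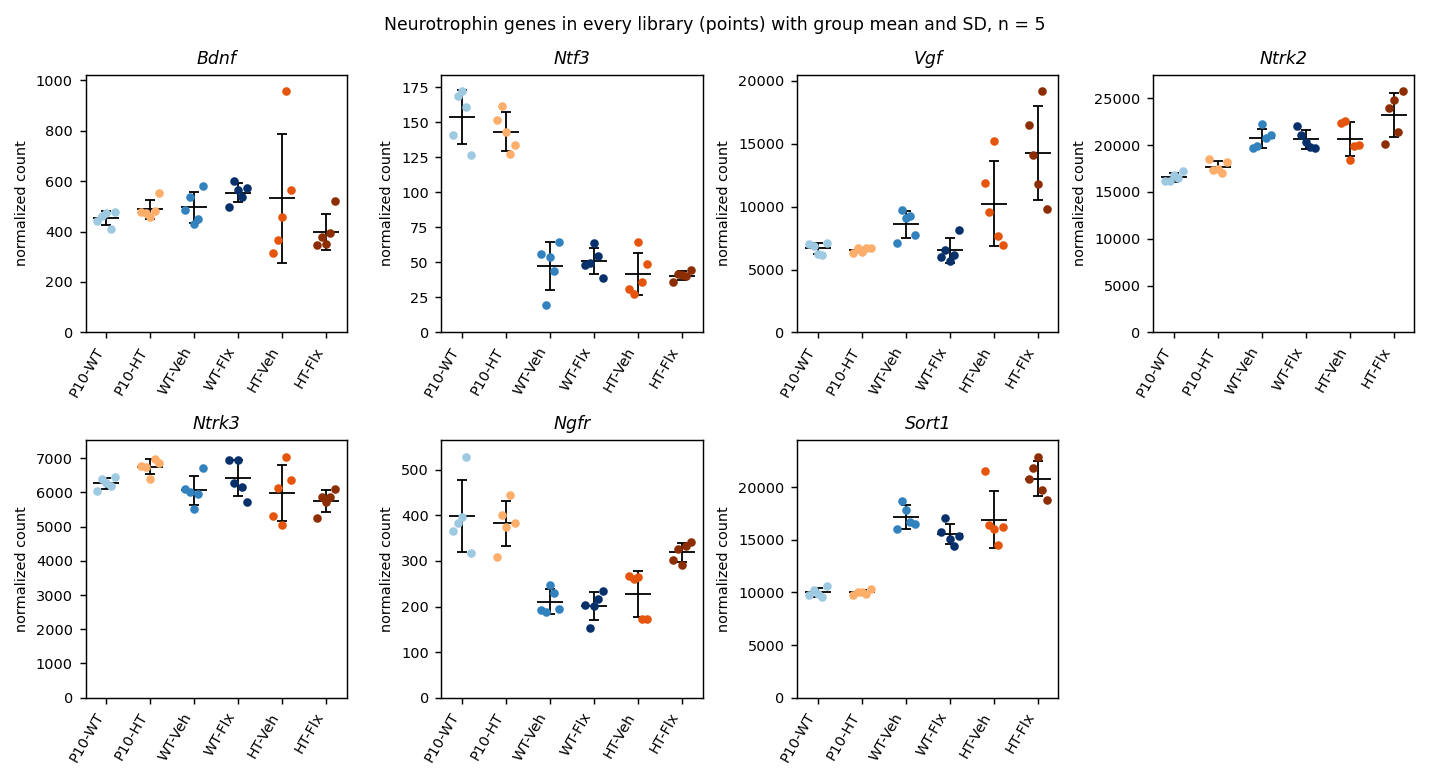
Normalized count of each gene in every library (points) by group, with the mean (bar) and SD (whiskers) of 5 libraries. *Ntf3* is at 127 or more in each P10 library and at 65.0 or less in each P120 library, and the HT-Flx libraries lie above the WT-Flx libraries for *Vgf*, *Ngfr* and *Sort1*.

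Of the ligands, *Ntf3* showed the larger difference. P10-WT libraries 1 to 5 held 141, 169, 172, 161 and 127 normalized counts of *Ntf3*, and WT-Veh libraries 1 to 5 held 56.1, 19.4, 53.6, 43.7 and 64.7. The lowest pup value was above the highest adult value. The log2 fold change was -1.77 ± 0.27 (SE; limma adjusted p = 8.90e-05), a level of 0.293 of that in pups. HT libraries repeated this separation, with 151, 162, 143, 127 and 134 in P10-HT against 31.3, 27.2, 64.8, 36.3 and 48.8 in HT-Veh (log2 fold change -1.82 ± 0.22, limma adjusted p = 2.28e-05). For *Bdnf*, P10-WT libraries held 441, 463, 473, 409 and 478 and WT-Veh libraries 484, 536, 429, 449.9 and 581, and these groups overlapped. Its log2 fold change was 0.12 in WT (95% interval -0.082 to 0.33, limma adjusted p = 0.280) and 0.011 in HT (95% interval -0.50 to 0.53, limma adjusted p = 0.972). HT-Veh libraries spread from 315 to 955, and the HT interval was the wider.

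The receptors moved in opposite directions. *Ngfr* was at 366, 383, 396, 529 and 318 in P10-WT and at 193, 189, 248, 231 and 194 in WT-Veh, groups that did not overlap. Its log2 fold change was -0.90 ± 0.13 in WT (limma adjusted p = 8.01e-05) and -0.77 ± 0.17 in HT (limma adjusted p = 0.00196). Its partner for the pro-forms, *Sort1*, went the other way. *Sort1* held 9745, 10222, 9839, 9570.4 and 10622 in P10-WT and 16023, 18716, 17864, 16667 and 16449 in WT-Veh, a log2 fold change of 0.78 ± 0.061 (limma adjusted p = 2.86e-07) and a 1.71-fold higher adult level. In HT the log2 fold change of *Sort1* was 0.75 ± 0.11 (limma adjusted p = 0.000149), and again no adult library fell within the pup range. *Ntrk2* was at 16149, 16145, 16833, 16489.6 and 17228 in P10-WT and at 19695, 19874, 22263, 20793 and 21042 in WT-Veh. All 5 adults lay above all 5 pups, with a log2 fold change of 0.32 ± 0.055 (limma adjusted p = 0.000251). In HT it was 0.22 ± 0.099 and did not pass (limma adjusted p = 0.0798). Without HT-Veh replicate 3 it did, at 0.18 to 0.26 over the libraries left out in turn. *Ntrk3* differed little in WT, at 6267 ± 163 in P10-WT and 6059 ± 430.1 in WT-Veh (SD, n = 5; log2 fold change 95% interval -0.18 to 0.078), and in HT the interval was -0.42 to 0.050.

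*Vgf* rose from 7005, 6899, 6262, 6179 and 7071 in P10-WT to 7133, 9713, 9092, 9273 and 7771 in WT-Veh, where the lowest adult value was just above the highest pup value. Its log2 fold change was 0.36 ± 0.087 in WT (limma adjusted p = 0.00351) and 0.58 ± 0.18 in HT (limma adjusted p = 0.0170). Groups did not overlap for 5 of the 7 members in WT (*Ntf3*, *Ngfr*, *Sort1*, *Ntrk2* and *Vgf*), against 45.6% of all genes, and for 4 in HT, against 40.2%. The 2-sided exact permutation p of each of these was 0.0079, the smallest that 5 against 5 libraries allow. Without both libraries that go against their labels, the log2 fold change of *Ntf3* was -1.48 in WT and -1.69 in HT, that of *Ngfr* -0.87 and -0.82, that of *Sort1* 0.74 and 0.75, and that of *Vgf* 0.31 and 0.59, each past the threshold. After the GC and length correction *Ntf3*, *Ngfr* and *Sort1* kept their direction and call in both genotypes and *Ntrk2* in WT, with *Ntrk2* then also past the threshold in HT (0.44, limma adjusted p = 0.000603). The correction moved *Vgf* to 0.14 (limma adjusted p = 0.0572) and 0.18 (limma adjusted p = 0.0593), short of the threshold, and moved *Bdnf* to 0.52 (limma adjusted p = 0.000806) and 0.52 (limma adjusted p = 0.00301), past it. *Ntrk3* also passed after it, at 0.36 and 0.46, the opposite sign to the uncorrected value. The direction of *Ntrk3* and the call of *Bdnf* and *Vgf* between ages thus depended on the correction.

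**Figure D3:**
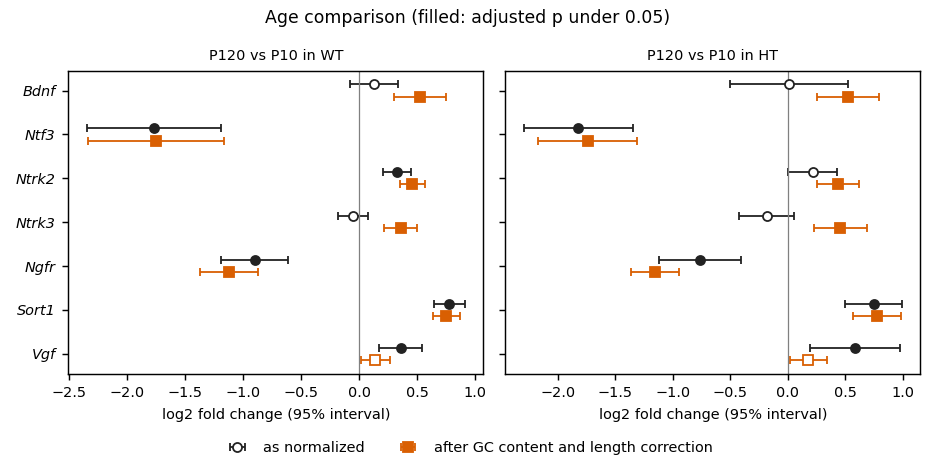
Log2 fold change (points) with its 95% interval (lines) between P120 vehicle and P10 libraries in WT (left) and HT (right), 5 against 5 libraries, as normalized (circles) and after the GC content and length correction (squares); filled symbols passed an adjusted p of 0.05. *Ntf3* and *Ngfr* lie below 0 and *Sort1* above 0 in both panels and fits.

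The fall or rise with age was compared between genotypes as an interaction term in the 20 P10 and vehicle libraries. None of the 7 members passed (limma), 0% of all 17978 genes did (2 genes without limma's trend), and 612 genes but no member had an unadjusted p under 0.05. The difference between HT and WT in the age change was -0.054 for *Ntf3* (95% interval -0.80 to 0.70), 0.14 for *Ngfr* (-0.32 to 0.59) and -0.030 for *Sort1* (-0.28 to 0.22). The interval of *Vgf* (-0.21 to 0.67) was wider than its age change in either genotype, so equal changes were not shown. Without replicate 2 of both vehicle groups the estimates were -0.21 for *Ntf3*, 0.043 for *Ngfr*, 0.0096 for *Sort1* and 0.28 for *Vgf*, and none passed.

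At P10 the genotype comparison asks whether loss of one *Arid1b* allele alters these genes in pups. None of the 7 members passed (limma adjusted p of 0.05, a rate of 0.0224% over all 17896 genes), and 2 had an unadjusted p under 0.05, as did 2249 of all genes (12.6%). Both are Trk receptors. *Ntrk3* was at 6769, 6748, 6384, 6968 and 6856 in P10-HT and 6048, 6395, 6266, 6174 and 6449 in P10-WT (log2 fold change 0.11 ± 0.035, limma adjusted p = 0.317, exact permutation p = 0.0238). *Ntrk2* was at 18496, 17362, 17496, 16993 and 18213 in P10-HT and 16149, 16145, 16833, 16489.6 and 17228 in P10-WT (log2 fold change 0.096 ± 0.036, limma adjusted p = 0.334, exact permutation p = 0.0159). For each, 1 P10-HT library lay within the WT range. After the GC and length correction neither kept an unadjusted p under 0.05, with log2 fold changes of 0.043 for *Ntrk3* and 0.071 for *Ntrk2*. With median transcript lengths in that correction both kept one (0.086 and 0.080). The 95% intervals of the log2 fold change were -0.041 to 0.25 for *Bdnf*, -0.33 to 0.14 for *Ntf3*, -0.32 to 0.22 for *Ngfr*, -0.079 to 0.078 for *Sort1* and -0.13 to 0.072 for *Vgf*. The narrowest of these was that of *Sort1*.

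At P120 after vehicle, HT-Veh was compared with WT-Veh in replicates 1, 3, 4 and 5. None of the 7 members and 0% of 17784 genes passed (limma), and 229 genes but no member had an unadjusted p under 0.05. *Bdnf* spread most. The HT-Veh libraries 1 to 5 held 315, 367, 456, 955 and 565 normalized counts, against 484, 536, 429, 449.9 and 581 in WT-Veh. HT-Veh replicate 4 was above every other library of the series, while replicate 1 and the library labelled replicate 2 were below every WT-Veh library. The log2 fold change of *Bdnf* was 0.13 (95% interval -0.50 to 0.76), and it ran from -0.16 to 0.38 when 1 library was left out. *Ntrk2* had a difference of -0.057 (-0.36 to 0.25), *Ntrk3* of -0.043 (-0.38 to 0.30), *Ngfr* of -0.0059 (-0.46 to 0.45), *Sort1* of 0.0091 (-0.34 to 0.36), *Vgf* of 0.26 (-0.28 to 0.79) and *Ntf3* of -0.30 (-0.90 to 0.29). With all 5 and 5 libraries the values were -0.0064 for *Bdnf*, 0.088 for *Ngfr*, -0.030 for *Sort1* and 0.20 for *Vgf*, and again none passed. After the GC and length correction they were 0.13, -0.11, 0.088 and 0.16 in the same order, with none past the threshold.

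Early fluoxetine within a genotype is the comparison of HT-Flx with HT-Veh and of WT-Flx with WT-Veh. No member passed in either (limma; 0% of 17676 and 0% of 17865 genes, with 4082 and 4504 at an unadjusted p under 0.05), while 3 members had an unadjusted p under 0.05 in HT and 1 in WT. In HT these were *Ngfr*, *Sort1* and *Vgf*, each with a positive estimate. *Ngfr* was at 302, 327, 292, 333 and 342 in HT-Flx and 267, 261, 264, 172 and 173 in HT-Veh, and it was the only member whose groups did not overlap (1.62% of all genes; log2 fold change 0.51 ± 0.16, limma adjusted p = 0.215, exact permutation p = 0.0079). *Sort1* was at 20804, 21814, 22878, 19697 and 18732 and 21483, 16439.7, 16019, 14462 and 16172 in the same groups (log2 fold change 0.31 ± 0.13, limma adjusted p = 0.215). *Vgf* was at 16472, 14122, 11764, 19163 and 9814 and 11853, 9552, 15201, 7641 and 6929 (log2 fold change 0.50 ± 0.23, limma adjusted p = 0.215). Without replicate 2 of both vehicle groups the log2 fold changes were 0.57 for *Ngfr*, 0.30 for *Sort1* and 0.49 for *Vgf*, and the unadjusted limma p stayed under 0.05 for *Ngfr* alone. After the GC and length correction *Ngfr* moved to 0.15 and *Vgf* to 0.15, neither with an unadjusted limma p under 0.05, and *Sort1* was at 0.26, with one under 0.05. When HT-Veh replicates 1 and 3 were left out, an alternative chosen after the data were seen, 3 members passed (*Ngfr* 0.68, *Sort1* 0.40 and *Vgf* 0.80). So did 6883 of all 17702 genes tested, so the count is not particular to the members. The libraries left out had the highest GC contrasts of HT-Veh (1.09 and 0.661), so the choice also set HT-Veh further from HT-Flx in composition. *Bdnf*, at 348, 379.9, 350.5, 394 and 522 in HT-Flx, had a log2 fold change of -0.32 against HT-Veh (95% interval -0.86 to 0.23), and 0.26 after the correction, neither past the threshold.

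In WT the member with an unadjusted p under 0.05 was *Vgf*, with a negative estimate. WT-Flx libraries held 6032, 6585, 5648, 6175 and 8168 against 7133, 9713, 9092, 9273 and 7771 in WT-Veh, with a log2 fold change of -0.40 ± 0.11 (limma adjusted p = 0.0887, exact permutation p = 0.0238). WT-Flx replicate 5 lay within the vehicle range. Without WT-Veh replicate 1 *Vgf* passed, without replicate 2 of both vehicle groups it was at -0.35 (limma adjusted p = 0.196), and after the GC and length correction it was at -0.11 (limma adjusted p = 0.653). *Bdnf* was at 497, 599.8, 563, 538 and 571 in WT-Flx, with a log2 fold change of 0.17 (95% interval -0.047 to 0.38), or -0.16 after the correction, neither past the threshold. The intervals of *Ntrk2* (-0.14 to 0.12) and *Sort1* (-0.29 to 0.0071) were the narrowest of the members and included 0.

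Among fluoxetine-treated mice, HT-Flx differed from WT-Flx in 4 of the 7 members: *Vgf*, *Ngfr* and *Sort1* were higher and *Bdnf* was lower. This count stands beside 63.7% of all 17799 genes tested that passed in the same comparison (5893 higher and 5437 lower, or 3784 and 7316 when each library was given the same total, which shifted the median of all genes by -0.249). The share of members, 4 of 7, is near that rate. *Vgf* was at 14267 ± 3707 in HT-Flx and 6521 ± 979.6 in WT-Flx (SD, n = 5; 2.15-fold, log2 fold change 1.10 ± 0.17, limma adjusted p = 0.000128), and the lowest HT-Flx library (9814) exceeded the highest WT-Flx library (8168). *Ngfr* was at 204, 152, 200.1, 217 and 235 in WT-Flx, below every HT-Flx value (log2 fold change 0.67 ± 0.12, limma adjusted p = 0.000446). *Sort1* was at 15773, 17073, 15099.5, 14417 and 15383 in WT-Flx, again below every HT-Flx value (log2 fold change 0.42 ± 0.079, limma adjusted p = 0.000571). *Bdnf* was lower in 4 of 5 HT-Flx libraries than in any WT-Flx library, and replicate 5 (522) fell between the lowest and the next WT-Flx values (log2 fold change -0.49 ± 0.12, limma adjusted p = 0.00312). Groups did not overlap for 3 members, against 48.5% of all genes. With the same total per library *Sort1* did not pass (0.17, limma adjusted p = 0.0934), *Vgf* (0.85), *Ngfr* (0.42) and *Bdnf* (-0.74) kept their calls, and *Ntf3* (-0.55) and *Ntrk3* (-0.40) passed. The log2 fold change of *Ntf3* was -0.31 (95% interval -0.67 to 0.051), that of *Ntrk2* 0.17 (-0.015 to 0.35) and that of *Ntrk3* -0.15 (-0.32 to 0.017).

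HT-Flx and WT-Veh, the comparison of treated mutants with untreated WT mice, shares the HT-Flx libraries with the one above. *Ngfr* (log2 fold change 0.60 ± 0.12, limma adjusted p = 0.00742), *Vgf* (0.70 ± 0.16, adjusted p = 0.00831) and *Sort1* (0.28 ± 0.087, adjusted p = 0.0235) were higher in HT-Flx, 3 of 7 against 43.3% of 17681 genes. With the same total per library *Sort1* lost its call (0.090, limma adjusted p = 0.424), and *Bdnf* (-0.51) and *Ntrk3* (-0.26) passed. As normalized, the groups did not overlap for *Ngfr*, *Vgf* and *Sort1*, against 20.8% of all genes. *Bdnf* did not pass (-0.32, 95% interval -0.61 to -0.029, limma adjusted p = 0.0699), and after the GC and length correction its estimate had the opposite sign (0.33, limma adjusted p = 0.159). *Sort1* lost its call when HT-Flx replicate 2 or 3 or WT-Veh replicate 1 or 5 was left out (0.24 to 0.31 over the 10 libraries left out in turn). Without replicate 2 of both vehicle groups, the log2 fold change was 0.56 for *Ngfr*, 0.75 for *Vgf* and 0.31 for *Sort1*, each past the threshold.

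The test of whether fluoxetine acted differently in the genotypes is the interaction in the 20 P120 libraries, which are those of the comparisons above. *Vgf* (0.90 ± 0.27 on the log2 scale, limma adjusted p = 0.0347), *Ngfr* (0.58 ± 0.21, adjusted p = 0.0450) and *Sort1* (0.45 ± 0.14, adjusted p = 0.0348) passed, 3 of 7 against 27.3% of 17796 genes. For each the fluoxetine estimate was positive in HT and negative in WT as normalized. In WT the 95% intervals of *Ngfr* (-0.36 to 0.22) and *Sort1* (-0.29 to 0.0071) included 0. After the GC and length correction the fluoxetine estimate of *Ngfr* was 0.20 in WT and 0.15 in HT. Without replicate 2 of both vehicle groups, whose *Arid1b* values go against their labels, the interaction was 0.84 for *Vgf*, 0.68 for *Ngfr* and 0.41 for *Sort1*. None passed (limma adjusted p = 0.0613, 0.0577 and 0.0668), nor did any gene, though 7312 had an unadjusted p under 0.05. Over the 20 libraries left out in turn, *Vgf* kept its call in 12, *Sort1* in 11 and *Ngfr* in 6. *Bdnf* had an interaction of -0.48 (95% interval -1.08 to 0.12) and did not pass, and after the GC and length correction its estimate was 0.42 (limma adjusted p = 0.238).

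The correction for GC content and length changed several of these P120 values (the plot of P120 comparisons with and without the correction). Between HT-Flx and WT-Flx, *Sort1* kept its call at 0.37 (limma adjusted p = 0.0101). *Vgf* kept its call at a smaller 0.36 (limma adjusted p = 0.0283), but not with the replicate number added to the fit as a block. *Ngfr* moved to -0.076 (limma adjusted p = 0.671). *Bdnf* changed sign, to 0.49 (limma adjusted p = 0.00876). Both Trk receptors then passed, *Ntrk2* at 0.35 and *Ntrk3* at 0.77. With median instead of longest transcript lengths the corrected *Ntrk3* value was 0.55 and that of *Bdnf* 0.54. Against WT-Veh, *Ngfr* (0.13), *Vgf* (0.24) and *Sort1* (0.27) no longer passed after correction, while *Ntrk2* (0.32) and *Ntrk3* (0.59) did. None of the 7 interactions passed after it (0 of 17796 genes, limma; 3778 at an unadjusted p under 0.05). Of the 4 members called between HT-Flx and WT-Flx, the estimate of *Sort1* moved least, from 0.42 to 0.37. Its GC content lay at percentile 53.7, against 7.3 for *Bdnf*, 90.4 for *Ngfr* and 99.3 for *Vgf*, so a GC correction had less to move. With the same total per library *Sort1* did not pass (0.17, limma adjusted p = 0.0934).

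**Figure D4:**
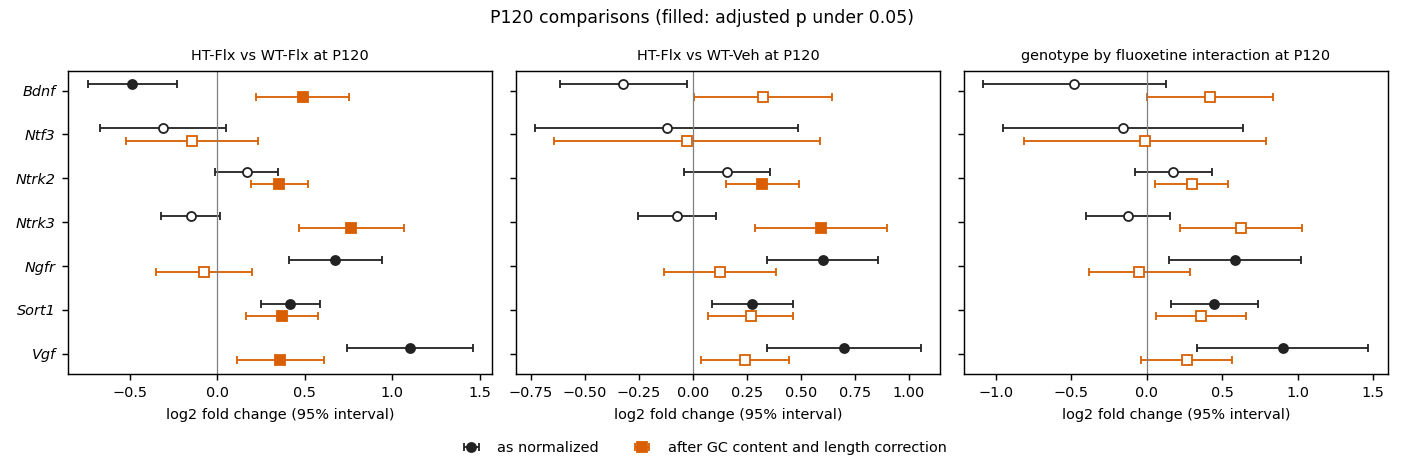
Log2 fold change or interaction (points) with its 95% interval (lines) for the 7 genes in 3 P120 comparisons of 5 libraries a group, as normalized (circles) and after the GC content and length correction (squares); filled symbols passed an adjusted p of 0.05. *Bdnf* lies below 0 as normalized and above 0 after correction between HT-Flx and WT-Flx, and *Sort1* lies above 0 in each panel under both.

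The GC contrast of each library is set beside the members' values in the plot of values against GC contrast. In HT-Veh, replicates 4 and 5, with contrasts of -0.823 and -0.650 relative to the mean of the P120 libraries, held 955 and 565 of *Bdnf* and 7641 and 6929 of *Vgf*. Replicates 1 and 3, with contrasts of 0.817 and 0.383, held 315 and 456 of *Bdnf* and 11853 and 15201 of *Vgf*. These pairs did not overlap for either gene, leaving aside the library labelled replicate 2. In HT-Flx, the library with the lowest contrast (replicate 5, 0.500) held the most *Bdnf* (522) and the least *Vgf* (9814), and the one with the highest contrast (replicate 1, 1.39) held 348 and 16472. *Vgf* did not follow the contrast throughout HT-Flx, since replicate 4 (0.655) held the most (19163) and replicate 3 (1.01) only 11764. The contrast is given as a description, with no test.

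**Figure D5:**
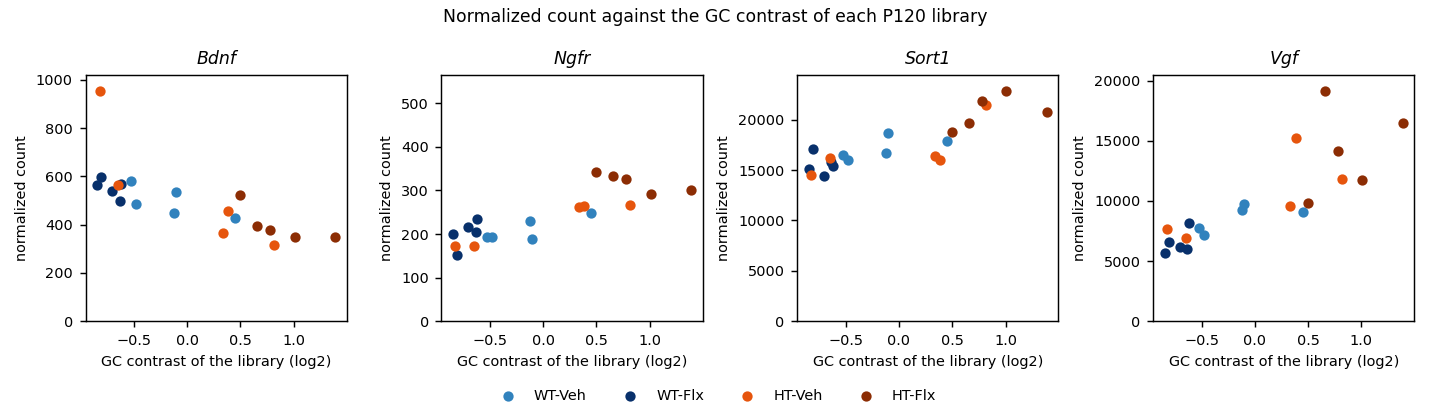
Normalized count of *Bdnf*, *Ngfr*, *Sort1* and *Vgf* (vertical axes, from 0) in the 20 P120 libraries against the GC contrast of each library, in log2 units relative to the mean of these libraries, with 1 point a library and 5 libraries a group. The libraries with a contrast of 0.5 or more, the 5 HT-Flx libraries and HT-Veh replicate 1, hold 18732 or more of *Sort1*, above every other P120 library.

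Beyond the members, 72 genes in 5 lists around neurotrophin signalling were examined, and 71 were tested in each comparison other than HT-Flx against HT-Veh, where all 72 were. None passed in the P10 comparison, for HT-Veh against WT-Veh, for fluoxetine within either genotype or in the genotype by age interaction (limma). Unadjusted p-values under 0.05 numbered 12 at P10 (16.9% against 12.6% of all genes), 2 between HT-Veh and WT-Veh (2.8% against 1.3%), 15 for fluoxetine in HT (20.8% against 23.1%), 26 in WT (36.6% against 25.2%) and 2 in the age interaction (2.8% against 3.4%). Between P10 and P120, 32 rose and 18 fell in WT (70.4% against 58.3% of all genes), and 20 rose and 10 fell in HT (42.3% against 51.1%). Between HT-Flx and WT-Flx, 32 were higher and 19 lower (71.8% against 63.7%), and between HT-Flx and WT-Veh 22 were higher and 14 lower (50.7% against 43.3%). In the genotype by fluoxetine interaction 14 passed with a positive and 8 with a negative estimate (31.0% against 27.3%). The shares were not tested against each other. After the GC and length correction 17, 3 and 0 of the 51, 36 and 22 calls in these last comparisons kept call and direction. The ligand gene *Ntf5*, which encodes NT-4, averaged 6.55 ± 2.02 normalized counts (SD, n = 5) in WT-Veh and 4.17 ± 0.925 in P10-WT.

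Among 10 other ligands and receptors, of which 9 were tested, 4 rose and 2 fell with age in WT. *Sorl1*, a sorting receptor of the sortilin family, rose most (1.13 in WT and 1.25 in HT on the log2 scale). *Nradd*, a p75NTR-like death domain protein, rose by 0.50 and 0.81, and *Sorcs3* by 0.20 in WT. *Sorcs1*, another sortilin relative, had -0.48 and -0.58, and *Bex3* -0.21 in WT, past the threshold. In HT 3 rose and 1 fell. *Sort1* and *Sorl1* thus rose together while *Sorcs1* fell. The list's median was 0.077 in WT and 0.172 in HT, against -0.013 and -0.019 over all genes. After the GC and length correction the list's median changed sign, to -0.133 in WT and -0.01 in HT. With it 2 rose and 3 fell in WT and 2 rose and 2 fell in HT. In HT-Flx against WT-Flx, 6 were higher and 2 lower, among them *Nradd* (0.83), *Sorcs2* (0.74) and *Lingo1* (0.62), a co-receptor of p75NTR, with *Sorcs1* at -0.58 and *Sorcs3* at -0.25. After the correction, 3 of these 8 kept their call. They were *Sorl1* (0.47), *Bex3* (0.28) and *Sorcs3* (-0.39).

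For the 14 genes of pro-neurotrophin processing and release, 6 rose and 5 fell with age in WT and 2 rose and 2 fell in HT. The convertases diverged. *Pcsk6* (1.43 in WT and 1.61 in HT) and *Pcsk2* (0.64 and 0.67) rose, whereas *Pcsk5* (-0.78 and -0.99) fell. In WT, *Pcsk1* (0.44) and *Cpe* (0.42), the carboxypeptidase that also binds pro-BDNF during sorting, rose as well. *Cadps2*, which promotes release of BDNF-containing vesicles, had -0.43 and -0.56 and fell in both genotypes, as did *Chga* (-0.21) and *Plat* (-0.19), the tissue plasminogen activator, in WT. The median was 0.132 in WT and 0.097 in HT, and after the GC and length correction -0.055 and -0.17. In HT-Flx, 4 were higher than in WT-Flx (*Mmp9* 1.01, *Pcsk6* 0.95, *Furin* 0.91 and *Chga* 0.50) and 5 lower, among them *Serpini1* (-1.31), *Pcsk1* (-1.07), *Scg2* (-0.81) and *Chgb* (-0.28). After correction 4 of the 9 kept their call, while *Furin* (0.17) and *Pcsk1* (0.0092) did not.

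Of 22 Trk adaptors and effectors, 7 rose and 6 fell with age in WT and 5 rose and 3 fell in HT. The medians were 0.047 and -0.011, and 0.101 and 0.024 after the GC and length correction. *Irs2* (0.52 in WT), *Ptpn11* (0.49), which encodes the phosphatase SHP2, *Frs3* (0.47) and *Shc1* (0.31) rose, and each also rose in HT. *Irs1* (-0.57 in WT and -0.52 in HT), *Sos1* (-0.30 and -0.44), *Sh2b2* (-0.30 in WT) and *Arhgdia* (-0.43 in WT) fell. The docking genes *Irs1* and *Irs2* therefore moved in opposite directions. Between HT-Flx and WT-Flx 11 were higher and 6 lower, led by *Frs3* (1.08), *Sh2b1* (0.82), *Arhgdia* (0.81) and *Rapgef1* (0.77) and, in the other direction, *Crk* (-1.06), *Kidins220* (-0.79), a Trk scaffold, *Sos1* (-0.78) and *Ripk2* (-0.70). After correction 6 of these 17 kept call and direction, and *Sos1* (0.32), *Plcg1* (-0.30) and *Shc2* (-0.32) passed in the opposite direction.

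For the 14 transcription factors and repressors of *Bdnf*, 6 rose and 5 fell with age in WT and 5 rose and 4 fell in HT. *Bhlhe40* (1.50 in WT and 1.20 in HT), *Srf* (1.02 and 1.11), *Crtc1* (0.70 and 0.87), a coactivator of CREB, and *Mef2d* (0.52 and 0.64) rose. *Mef2c* (-1.28 and -1.57), *Hdac2* (-0.76 and -0.93), *Mef2a* (-0.49 and -0.76) and *Carf* (-0.49 and -1.04) fell. Regulators of *Bdnf* thus moved in both directions while *Bdnf* itself passed in neither genotype as normalized and in both after the GC and length correction (0.52 and 0.52). The list's median was 0.127 in WT and -0.102 in HT, and after the correction 0.146 and 0.115. Between HT-Flx and WT-Flx 5 were higher, led by *Crtc1* (0.88), *Srf* (0.83), *Mef2d* (0.81) and *Usf1* (0.74), and 5 lower, led by *Creb1* (-1.25), *Carf* (-1.23), *Mef2a* (-1.01) and *Mef2c* (-0.92). After correction 2 of these 10 kept their call, *Mef2d* (0.32) and *Bhlhe40* (0.33), and *Creb1* was at -0.15.

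Among 12 genes induced by neurotrophins and neuronal activity, 9 rose and none fell with age in WT, and 5 rose and none fell in HT (limma). *Arc* rose most (2.72 in WT and 2.69 in HT), followed by *Junb* (1.90 and 1.56), *Nr4a1* (1.61 and 1.01) and *Egr1* (1.24 and 0.77). This list's median, 0.757 in WT and 0.509 in HT, was the highest of the 5 lists, and each of the 9 and 5 calls held after the correction. With the correction 10 genes of the list rose and 1 fell in WT, and 8 rose and 0 fell in HT. The share of all genes past the threshold as normalized was 58.3% in WT and 51.1% in HT. *Bdnf*, itself an activity-induced gene, differed by 0.12 and 0.011 over the same ages as normalized, and by 0.52 and 0.52, past the threshold, after the correction. Of the same 12 genes, 6 were higher in HT-Flx than in WT-Flx, led by *Junb* (0.79), *Spry4* (0.66), *Arc* (0.59) and *Nptx2* (0.43), and *Homer1* was lower (-1.25). After correction *Spry4* (0.51) and *Spry2* (0.72) kept their call.

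Markers of cell types and brain regions moved with age beside these genes. All 5 markers of immature neurons and progenitors fell in WT and in HT, with a summed level of 11180 to 17033 normalized counts in P10-WT and 876 to 2085 in WT-Veh. In WT, oligodendrocyte markers rose in 4 of 7 (summed level 127972 to 249633 in P10-WT and 182807 to 270230 in WT-Veh), both oligodendrocyte precursor markers fell, endothelial and mural markers fell in 4 of 5 and choroid plexus markers rose in 4 of 4. Cholinergic neuron markers, of cells known for *Ngfr*, rose in 2 of 3 in each genotype (summed level 509.96 to 595 in P10-WT and 444 to 779 in WT-Veh) while *Ngfr* fell. After the GC and length correction 1 of these 2 cholinergic calls was kept in each genotype. Neuronal markers rose in 4 and fell in 3 of 9, astrocyte markers rose in 2 and fell in 1 of 7, microglial markers rose in 3 and fell in 1 of 5, striatal markers rose in 3 of 5, cerebellar markers rose in 1 and fell in 1 of 6, cortical markers rose in 1 and fell in 2 of 4, and 1 of 2 pituitary markers tested rose. No marker was at 0 throughout a group, and the part of any of these in the members' differences was not tested.

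At P120, markers between HT-Flx and WT-Flx were higher in 3 and lower in 5 of 9 for neurons, 2 and 4 of 7 for astrocytes, 3 and 2 of 7 for oligodendrocytes, 1 and 1 of 2 for their precursors, 3 and 1 of 5 for microglia, 2 and 1 of 5 for endothelium and mural cells, 1 and 0 of 4 for choroid plexus, 1 and 0 of 6 for cerebellum, 1 and 1 of 5 for striatum, 1 and 1 of 3 for cholinergic neurons and 0 and 4 of 5 for immature neurons. No cortical or pituitary marker passed (limma). These counts stand beside 63.7% of all genes. After the GC and length correction 6390 of 17799 genes passed. Among the markers, 3 astrocyte (1 higher and 2 lower), 5 oligodendrocyte (3 higher and 2 lower), 1 oligodendrocyte precursor (lower) and 2 immature neuron markers (lower) were then past the threshold. So were 2 endothelial and mural, 2 cerebellar and 1 cortical marker, each higher, and 0 of the other lists, neurons and microglia included. The median log2 fold change of the cerebellar markers was 1.12 before and 1.32 after the correction. Astrocyte markers, of cells that carry truncated TrkB, summed to 66968 to 101503 in HT-Flx and to 107110 to 121279 in WT-Flx as normalized. Their median log2 fold change was -0.61 before and 0.065 after the correction, so its direction depended on the correction. Cholinergic markers summed to 676 to 823 in HT-Flx and 459 to 874 in WT-Flx, ranges that overlapped. The ranges of *Ngfr* did not overlap as normalized, but its log2 fold change was -0.076 after the correction (limma adjusted p = 0.671). Cerebellar markers ran from 7257 to 38653 within WT-Flx and from 11156 to 38996 within WT-Veh. The part of these in the members' values was not tested.

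For each member, the 3 genes most like it over the 20 P120 libraries, by Pearson correlation of log2 values among 14411 genes, are a description of these libraries, which share their preparation and the contrasts above. *Vgf* was most like *Unc5a* (r = 0.985), *Thop1* (0.984) and *Adap1* (0.982), whose transcripts have a GC content of 60.2% to 62.7%. *Bdnf* was most like *Ptgs2* (0.924), *Inhba* (0.91) and *Elavl4* (0.877), with a GC content of 38.9% to 41.4%. *Ptgs2* and *Inhba*, like *Bdnf*, are genes induced by neuronal activity. With the group means removed, the correlations were 0.974, 0.959 and 0.961 for *Vgf* and 0.905, 0.897 and 0.86 for *Bdnf*. *Ngfr* was most like *Cacng5* (0.951), *Hr* (0.942) and *Myrf* (0.934), a transcription factor of myelinating oligodendrocytes. *Sort1* was most like *Lmtk2* (0.958), *Dnaja4* (0.952) and *Nmt1* (0.946), *Ntrk2* like *Adarb1* (0.923), *Glg1* (0.899) and *Snrnp200* (0.894), and *Ntrk3* like *Trim34a* (0.877), *Ubtd2* (0.855) and *Setd5* (0.851). *Ntf3*, the lowest of the members, had the weakest neighbours, *Asf1a* (0.813), *Gm5089* (0.722) and *Ppih* (0.694). Among the members themselves, *Ngfr* and *Vgf* were most alike (0.784), and *Bdnf* ran opposite to *Sort1* (-0.736) and *Ngfr* (-0.71), as *Ntrk3* did to *Vgf* (-0.736).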

How the data were processed

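Whole-brain RNA of 30 male mice was measured by the authors with TruSeq RNA v2 libraries, and transcript abundance was estimated on GRCm38 with Salmon 1.1.0 and its GC bias correction, summed to genes and normalized with DESeq2 1.30.1 (per the labels and the study's methods). The deposited values are a normalized signal, read counts divided by normalization factors. They are not whole reads, so reads could not be recovered, sequencing depth is unknown and counting intervals are not given. Nothing in the labels said that replicates were separate litters, so p-values measure the spread between these mice.

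Groups came from the sample labels. Values were compared as log2(value + 1), for genes with a mean of at least 10 over the libraries compared, with limma 3.58.1 (trend) in R 4.3.3 and Benjamini-Hochberg adjustment over all genes tested, at a threshold of 0.05. A fold change on this scale understates that of low genes. Exact 2-sided permutation tests used Python 3.11.15. Names matched 99.92% of identifiers, and positions and lengths were those of GENCODE M21. All 7 members passed the filter in each comparison. The GC content and length correction used 10 by 10 classes. The fits were tested on simulated data with known changes.

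The members and lists were chosen with earlier results of these data known. Named list genes are those past the threshold, at most 4 a direction by size, in the age comparison and between HT-Flx and WT-Flx. List counts include genes that are not reported here by name. Alternatives were other pseudocounts, filters and scalings, the replicate block, no trend, a fit of all P120 groups, the GC content and length correction and each library left out in turn.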

Additional observations from a re-analysis of the deposited data

Results flagged for a closer look

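In 42 sets of 5 libraries (7 genes in 6 groups), 3 had a highest library whose gap to the next exceeded Dixon's critical value of 0.71 of the range. About 1 such set in 20 is expected by chance. *Bdnf* was at 554 in P10-HT replicate 5 (next highest 481), and at 522 in HT-Flx replicate 5 (next highest 394). *Sort1* was at 21483 in HT-Veh replicate 1 (next highest 16440).

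The fluoxetine difference differed between HT and WT, by the interaction term, for *Vgf* (0.90 on the log2 scale, limma adjusted p = 0.0347), *Ngfr* (0.58, adjusted p = 0.0450) and *Sort1* (0.45, adjusted p = 0.0348). Without HT-Veh replicate 2 and WT-Veh replicate 2, or after the correction for GC content and length, none of the 3 passed.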

How the results depend on the processing

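With pseudocounts of 0.1 and 5, a minimum mean of 100, no filter, no trend or median-of-ratios rescaling, the number of members past the threshold stayed within 1.5 times its value in all 10 comparisons. In the interaction of genotype and fluoxetine it moved from 3 to 1 with the same total per library, to 0 with the GC content and length correction (with longest or median lengths, or with the replicate block added) and to 0 without replicate 2 of both vehicle groups, and ran from 0 to 3 when 1 library was left out. It fell to 0 without HT-Flx 1, WT-Flx 2 or 3, HT-Veh 4 or 5 or WT-Veh 2, 3 or 4 and to 1 without HT-Flx 3. *Vgf* ran from 0.77 to 1.06, *Ngfr* from 0.49 to 0.65 and *Sort1* from 0.39 to 0.54. Leaving out 1 library gave 0 to 1 members between WT-Flx and WT-Veh. Leaving out HT-Veh 1 and 3 gave 3 between HT-Flx and HT-Veh, with 6883 of 17702 genes called, against 0 of 17676.

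The GC and length correction, with or without the block, reversed *Bdnf* (0.49; 0.54 with median lengths) and *Ngfr* (-0.076; -0.12) between HT-Flx and WT-Flx, the interaction of *Ngfr* (-0.050; -0.090), and *Ntrk3*, which was not called as normalized, between HT-Flx and WT-Flx (0.77; 0.55), HT-Flx and WT-Veh (0.59; 0.43) and P120 and P10 in WT (0.36; 0.17) and, with longest lengths, in HT (0.46). Of 1803 other fits of single genes, *Arid1b* included, 1637 kept direction and call or moved by less than 1 SD, 72 lost and 30 gained a call, 44 moved further and 20 reversed. Of the 1803, 1242 were past the threshold in neither fit, and 105 of these changed sign. The causes were not tested.

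The same total per library shifted the median of all genes by -0.249 between HT-Flx and WT-Flx (3784 higher and 7316 lower, against 5893 and 5437), by -0.19 between HT-Flx and WT-Veh (1843 and 5192, against 4138 and 3513), by -0.19 in the fluoxetine interaction (1501 and 3229, against 2803 and 2049), by -0.11 between ages in WT (4197 and 6488, against 5174 and 5277), by -0.16 in HT (3502 and 5887, against 4634 and 4550) and by -0.12 between HT-Flx and HT-Veh. All genes called numbered 6390 after the correction between HT-Flx and WT-Flx (5230 with the block, 6421 with median lengths, 11330 before), 1777 between HT-Flx and WT-Veh (1702 with the block, 1684 with median lengths, 7651 before) and 0 in the interaction (4852 before), also 0 without replicate 2 of both vehicle groups. At P10, 7 passed with the block and 8 with block and correction, against 4. In the genotype by age interaction 2 passed without the trend, against 0.

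Replicate numbers were not treated as pairs in the main fits, since in no comparison did every same-numbered pair correlate above 0.1. This rule cannot exclude that some numbers share a source. Between HT-Flx and HT-Veh, same-numbered pairs had a mean correlation of 0.179 (-0.0177 to 0.407), against -0.0441 for other pairs. With the replicate as a block, members past the threshold numbered 4 between HT-Flx and WT-Flx, 4 between HT-Flx and WT-Veh (*Bdnf* added), 2 in the fluoxetine interaction (*Ngfr* lost), 5 and 4 between ages in WT and HT and 0 in the other 5 comparisons, and all genes called between HT-Flx and HT-Veh rose from 0 to 1355, or to 2 with the correction. The unknown depth limits what can be said of low genes such as *Ntf3*.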
